A study of Mus musculus with 2 samples.

Results

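The 10 genes described here carry out antigen presentation by major histocompatibility complex (MHC) class I. They were B2m, H2-K1, H2-D1, H2-T23, Tap1, Tap2, Tapbp, Psmb8, Psmb9 and Nlrc5, picked by name, and each symbol was present among the 32285 genes of the deposited matrices. Their unique molecular identifiers (UMIs, each counted as 1 captured transcript) were summed per cell type and library. Cells of the retinal pigment epithelium (RPE), the pigmented layer that supports the photoreceptors, were taken as cells with at least 10 UMIs of Rpe65, the retinoid isomerase of the visual cycle. These were further divided at 1000 CPM of Serpina3n, a secreted serine protease inhibitor, where CPM are a gene's UMIs scaled to 1000000 UMIs in all, into Serpina3n-low and Serpina3n-high cells.

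The data were 2 single-cell libraries of dissociated RPE, choroid and sclera from male C57BL/6J mice aged 3 months. Control mice received 1 µl of PBS under the retina, and Dox mice received the same volume of Dox at 100 ng/µl by the same route. Dox is doxorubicin, an anthracycline that damages DNA and was used to bring on senescence. Eyes were taken 7 days after the injection. Each library pooled the 10 eyes of 5 mice, so neither condition had a replicate, the condition cannot be told apart from the library, and no test was made. By the study's own account the injected drug reaches a part of the RPE area, so the RPE cells of the Dox library mix reached and unreached cells. After filtering, 20180 control and 15426 Dox cells remained, with 115611226 and 99273166 UMIs, and 441 barcodes were found in both libraries. The RPE rule held for 1526 control cells (7.56%) and 1630 Dox cells (10.6%), of which 15 (0.983%, exact binomial interval 0.551 to 1.62) and 208 (12.8%, 11.2 to 14.5) were Serpina3n-high. Near the dividing value, 6 control and 13 Dox cells lay between 800 and 1000 CPM, and 2 control and 15 Dox cells between 1000 and 1250 CPM. The 8 RPE markers summed to between 78248 and 100803 CPM in the RPE groups against 3239 CPM and 5037 CPM in control and Dox fibroblast-like cells, and all 8 were above 0 in each RPE group. Of the cells taken by the rule, 1304 in control and 1381 in Dox also fell in the RPE-like cluster.

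Class I molecules display short peptides from proteins made inside the cell to cytotoxic T cells and natural killer cells. The proteasome cuts the peptides, the TAP pump carries them into the endoplasmic reticulum, and tapasin helps load them onto a heavy chain bound to beta-2-microglobulin. Interferons raise most genes of this route in many tissues, whereas the healthy eye is known as an immune-privileged site where class I levels are low.

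In GRCm38, the mm10 build of the files, 8 of the 10 genes lie on chromosome 17 within 2117 kb, in the MHC. Psmb9 (chr17:34181987-34187764, minus strand), Tap1 (chr17:34187553-34197225, plus), Psmb8 (chr17:34197721-34201454, plus) and Tap2 (chr17:34203527-34216321, plus) lie within 34.3 kb. Tapbp (chr17:33915899-33929292, plus), H2-K1 (chr17:33996017-34000347, minus), H2-D1 (chr17:35262730-35267499, plus) and H2-T23 (chr17:36029773-36032855, minus) lie to either side of them. B2m (chr2:122147686-122153083, plus) and Nlrc5 (chr8:94434356-94527272, plus) lie outside the MHC. The heavy chain genes are near-identical in places, so the share of reads each received from the authors' counting is uncertain.

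RefSeq promoter sequence of the same build was at hand for 8 of the 10 genes, in 9 entries since H2-K1 has 2 starts. Tap2 and Nlrc5 had no entry. The 200 bases before the RefSeq start are given for the light chain, the 3 heavy chains and Tap1, the gene with the largest Dox ratio in all RPE cells. This stretch was chosen because known interferon and NF-kB elements of class I genes lie there. RefSeq starts differ for some genes from the spans given above, which are from GENCODE. The H2-D1 window thus lies inside the span printed for H2-D1. Capitals mark the motifs, which were searched on both strands.
B2m (chr2:122147487-122147686, plus strand): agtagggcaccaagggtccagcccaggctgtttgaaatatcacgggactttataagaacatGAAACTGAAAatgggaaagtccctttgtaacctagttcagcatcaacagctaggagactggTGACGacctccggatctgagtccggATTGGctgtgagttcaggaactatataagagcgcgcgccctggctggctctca
H2-K1 (chr17:34000348-34000547, minus strand): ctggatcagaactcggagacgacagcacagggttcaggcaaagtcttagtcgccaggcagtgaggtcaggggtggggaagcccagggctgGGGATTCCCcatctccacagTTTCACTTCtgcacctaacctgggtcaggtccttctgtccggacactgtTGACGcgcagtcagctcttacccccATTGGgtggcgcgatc
H2-D1 (chr17:35262894-35263093, plus strand): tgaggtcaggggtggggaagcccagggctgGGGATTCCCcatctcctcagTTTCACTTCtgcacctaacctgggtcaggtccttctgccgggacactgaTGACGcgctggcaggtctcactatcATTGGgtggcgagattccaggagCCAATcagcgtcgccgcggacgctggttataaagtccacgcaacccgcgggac
H2-T23 (chr17:36032702-36032901, minus strand): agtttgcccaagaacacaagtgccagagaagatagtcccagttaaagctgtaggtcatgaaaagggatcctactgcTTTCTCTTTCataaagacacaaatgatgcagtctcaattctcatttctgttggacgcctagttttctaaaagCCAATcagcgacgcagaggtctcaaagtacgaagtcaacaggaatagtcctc
Tap1 (chr17:34187356-34187555, plus strand): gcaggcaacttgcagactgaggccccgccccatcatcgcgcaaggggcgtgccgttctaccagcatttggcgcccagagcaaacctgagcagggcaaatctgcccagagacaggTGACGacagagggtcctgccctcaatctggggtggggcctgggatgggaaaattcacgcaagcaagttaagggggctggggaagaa

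H2-K1 and H2-D1 shared the same run of motifs in the same order, the NF-kB-type GGGATTCCC, an interferon regulatory factor pair GAANNGAAA on the other strand, a CRE-like TGACG and CCAAT. GGGATTCCC was present in 0.213% and GAANNGAAA in 5.00% of 32851 windows of the same length before all RefSeq starts. B2m and H2-T23 instead held the wider interferon-stimulated response element GAAANNGAAA, present in 2.27% of the windows. TGACG was in the windows of B2m, H2-K1, H2-D1, Tap1 and Psmb9 and in 15.7% of all windows. CCAAT was in those of 6 of the 8 genes and in 29.3% of all. The RefSeq starts of Tap1 and Psmb9 lie 225 bases apart in opposite directions, so their windows overlap and the TGACG they hold is 1 and the same. Psmb8 held none of the 5 motifs, and neither element of the interferon type was in the windows of Tap1, Tapbp, Psmb8 or Psmb9. GAAANNGAAA and GAANNGAAA do not contain each other. A match is a description of the letters and not of a bound site.

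Across the cells of the eye wall, Serpina3n-low RPE cells stood at or near the bottom of the class I range. Lymphoid and myeloid cells were at the top for most of the genes. B2m, the light chain that every class I molecule needs, was at 1846 (control) and 1779 CPM (Dox) in natural killer (NK) or T-like cells and at 1741 and 1720 CPM in macrophage-like cells. In Serpina3n-low RPE cells it was at 329 CPM (exact Poisson interval 322 to 337) in control and 334 CPM (327 to 341) in Dox. Of the other types only smooth muscle-like cells were lower, with 302 CPM (286 to 318) in control and 236 CPM (216 to 258) in Dox. These intervals, like all given here, cover counting error only. Melanocyte-like cells, a shallow group with a median of 1145.5 UMIs in control and 760 in Dox, were next for B2m with 1274 and 1172 CPM, ahead of endothelial-like cells at 1116 and 1052 CPM. Their RPE markers summed to 9846 CPM in control and 29487 CPM in Dox, where their melanocyte markers summed to 38920 and 25480 CPM.

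H2-K1, a classical heavy chain, was lowest in Serpina3n-low RPE cells in both libraries, at 80.5 CPM (77.1 to 84.0) in control and 72.7 CPM (69.4 to 76.1) in Dox. The next group up, smooth muscle-like cells, had 184 and 178 CPM, and NK or T-like cells had 2026 and 2186 CPM. H2-D1, the other classical heavy chain, ran from 73.9 CPM (70.6 to 77.3) in control and 55.6 CPM (52.8 to 58.6) in Dox Serpina3n-low RPE cells to 2207 and 2419 CPM in macrophage-like cells. Its macrophage-like and NK or T-like levels were neighbours, and their intervals overlapped in both libraries. For H2-T23, the heavy chain of the nonclassical Qa-1 molecule that NK receptors read, Serpina3n-low RPE cells were at 10.3 and 9.79 CPM against 147 and 151 CPM in macrophage-like cells.

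For the genes of peptide supply, Serpina3n-low RPE cells were again below all the other cell types. Tap2 and Tapbp were highest in Dox in endothelial-like cells, at 125 and 170 CPM, against 105 and 153 CPM in NK or T-like cells. Dpt-led fibroblast-like cells of that library also had 170 CPM of Tapbp. Tap1, a chain of the peptide pump, was at 3.25 CPM (2.59 to 4.02) in control Serpina3n-low RPE cells, 17.6 CPM in control fibroblast-like cells and 69.3 CPM in control NK or T-like cells. Psmb8, an interferon-inducible catalytic subunit of the immunoproteasome, was at 10.1 CPM in control Serpina3n-low RPE cells, 82.3 CPM in control fibroblast-like and 382 CPM in control NK or T-like cells. Its partner subunit Psmb9 was at 3.67, 29.1 and 111 CPM in the same 3 groups. Nlrc5, the transactivator of class I genes, gave 0 UMIs in the 1526 control RPE cells, for which a floor of 3 counts gives up to 0.114 CPM and up to 0.197% of cells with a UMI, for counting error only. In Dox RPE cells it gave 7 UMIs (0.224 CPM, 0.0902 to 0.462), and in NK or T-like cells 15.3 CPM in control and 15.7 CPM in Dox. Nlrc5 was therefore not detectable at this depth in control RPE cells. Outside lymphoid and myeloid cells, the other control types had between 0.425 CPM (smooth muscle-like, 2 UMIs) and 4.68 CPM (an unnamed cluster, 13 UMIs). Low levels of Nlrc5 were thus not particular to RPE cells.

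**Figure D1:**
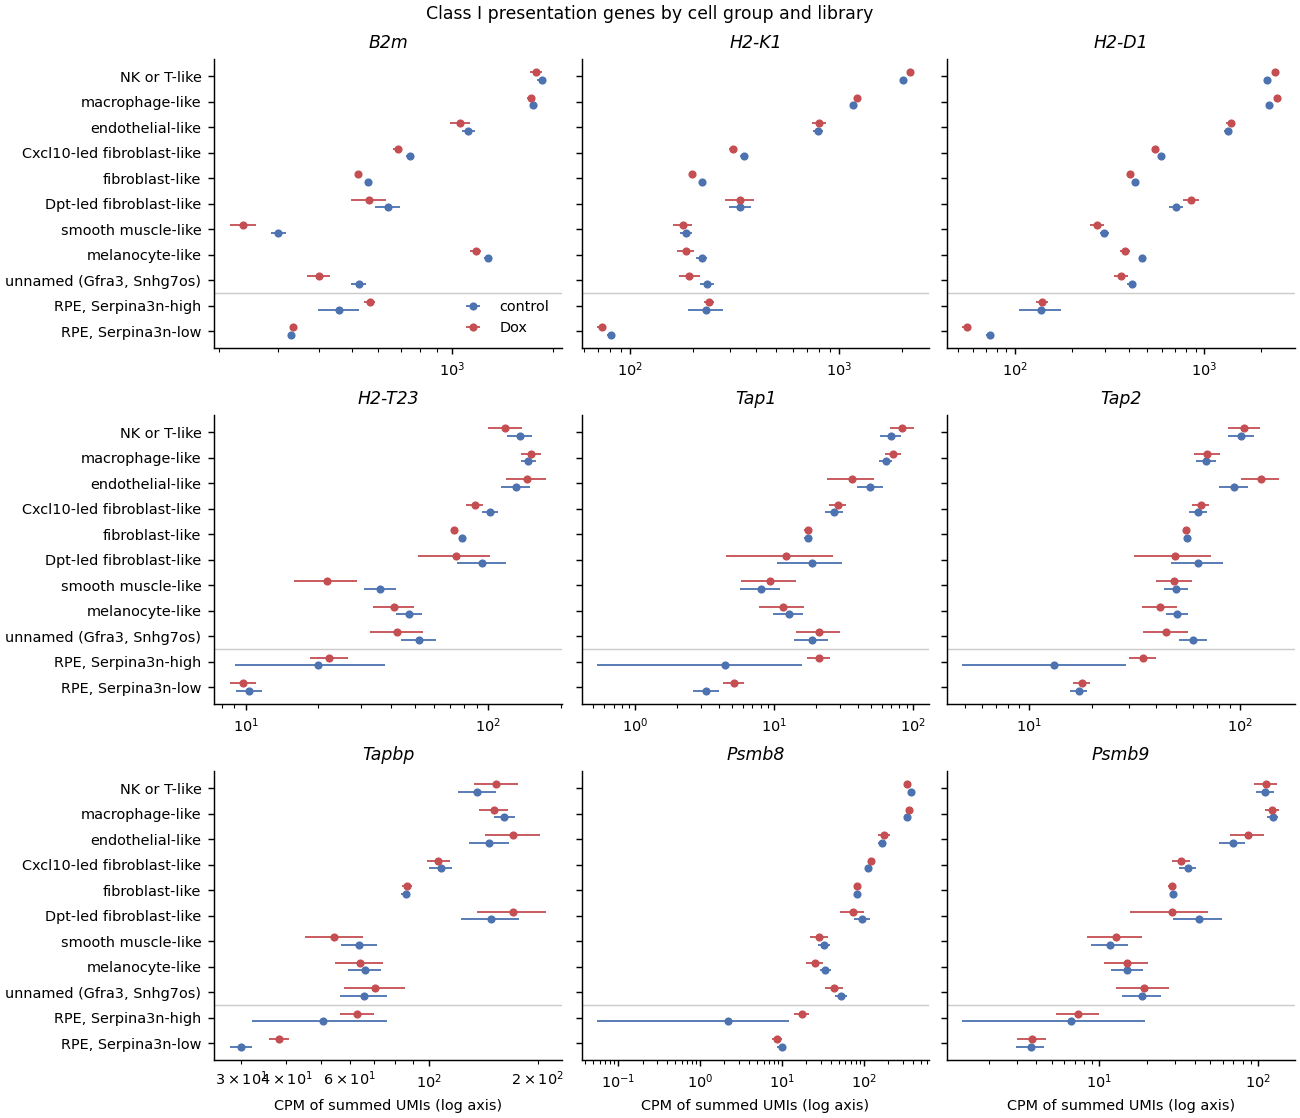
Level of 9 class I presentation genes (CPM of summed UMIs, log axis) in 11 groups of cells, control in blue and Dox in red, with bars for the exact Poisson interval of counting error; Nlrc5 is left out because it is at 0 in some groups. Serpina3n-low RPE cells, the bottom row, lie below the 9 other cell types for every gene shown except B2m, and control Serpina3n-high cells are lower still for Psmb8 and Tap2, from 1 and 6 UMIs, with H2-K1 at 80.5 CPM in control against 2026 CPM in NK or T-like cells.

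Between the libraries, the class I genes of RPE cells as a whole differed little, with Tap1 as the exception. Tap1 had 86 UMIs in control and 248 in Dox, or 3.27 CPM (2.61 to 4.04) and 7.95 CPM (6.99 to 9.0), a log2 ratio of 1.28 (exact conditional binomial interval 0.92 to 1.65). Of 9 class I genes with at least 50 UMIs over both groups, it was the only one higher in Dox by 1.5-fold or more, and 0 were lower. Over all 12774 genes compared in the same way, 1.66% were higher and 4.92% lower by that fold. Tapbp, which encodes the loading factor tapasin, came next with 30.4 CPM in control and 42.7 CPM in Dox (log2 ratio 0.49, 0.37 to 0.62). The log2 ratios of the light and heavy chains lay between -0.09 for H2-D1 and 0.30 for H2-K1, and that of B2m was 0.18 (0.14 to 0.22). The median over the 9 genes was 0.24 and that over all genes -0.01.

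Among the Serpina3n-low RPE cells, 1511 in control and 1422 in Dox, the ratios were nearer to 0. There B2m had a log2 ratio of 0.02 (-0.02 to 0.06), H2-K1 of -0.15 (-0.24 to -0.06) and H2-D1 of -0.41 (-0.51 to -0.31). Both classical heavy chains were thus lower in the Dox library, though by less than 1.5-fold. Tap1 was higher, at 3.25 (control) and 5.11 CPM (Dox; log2 ratio 0.65, 0.25 to 1.07), and Tapbp was at 30.0 and 38.3 CPM (0.35, 0.22 to 0.49). By 1.5-fold, 1 of 9 class I genes was higher and 0 were lower, against 1.05% higher and 3.87% lower of 12617 genes.

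RNA of other cell types was also present in the RPE groups, with lower sums in Dox for the lists given here. The 12 fibroblast markers summed to 1847 CPM in control and 1248 CPM in Dox Serpina3n-low RPE cells, with none at 0. In control, 11 of them stood at between 6.49% and 9.61% of their level in fibroblast-like cells. The exception was Dpt, which was under 1 CPM in both. The 12 macrophage markers summed to 390 and 200 CPM, and the 12 NK or T markers to 23.7 and 4.84 CPM, with Ncr1 at 0 in control and Trbc2 at 0 in Dox. The macrophage markers include the MHC class II genes H2-Aa, H2-Ab1 and H2-Eb1 and their partner Cd74. What these genes do to a selection by marker level was not tested. Among RPE cells whose summed fibroblast, macrophage and NK or T markers were at or below the median RPE cell, 619 control and 791 Dox Serpina3n-low cells remained. In them the log2 ratio was -0.11 for H2-D1, -0.05 for H2-K1, 0.95 for Tap1, 0.53 for Tapbp, 0.53 for H2-T23 and 0.69 for Psmb8, and 2 of 8 class I genes were higher by 1.5-fold, against 1.59% of all genes. Over all RPE cells chosen in that way, 5 of 9 were higher, against 2.61% of all genes, namely Tap1 (1.89), Psmb9 (1.72), Psmb8 (1.69), H2-T23 (1.14) and Tapbp (0.75). The selection kept 8 of 15 control and 160 of 208 Dox Serpina3n-high cells, against 619 of 1511 and 791 of 1422 Serpina3n-low cells. What this change of mix did to the ratios was not tested. Psmb9 had too few UMIs to be compared in the Serpina3n-low cells so chosen. Leaving out the cells of each library with the highest doublet scores removed 3290 control and 1931 Dox cells of all types. Of the 1526 control and 1630 Dox RPE cells, 1171 and 1435 remained, so a larger share was removed in control. Among those left were 12 control and 201 Dox Serpina3n-high cells. That selection gave 4 of 9, against 2.0% of all genes, namely Tap1 (1.64), Psmb8 (0.70), Psmb9 (0.68) and Tapbp (0.60). How much of the class I signal in RPE cells such RNA or doublets carry was not tested.

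**Figure D2:**
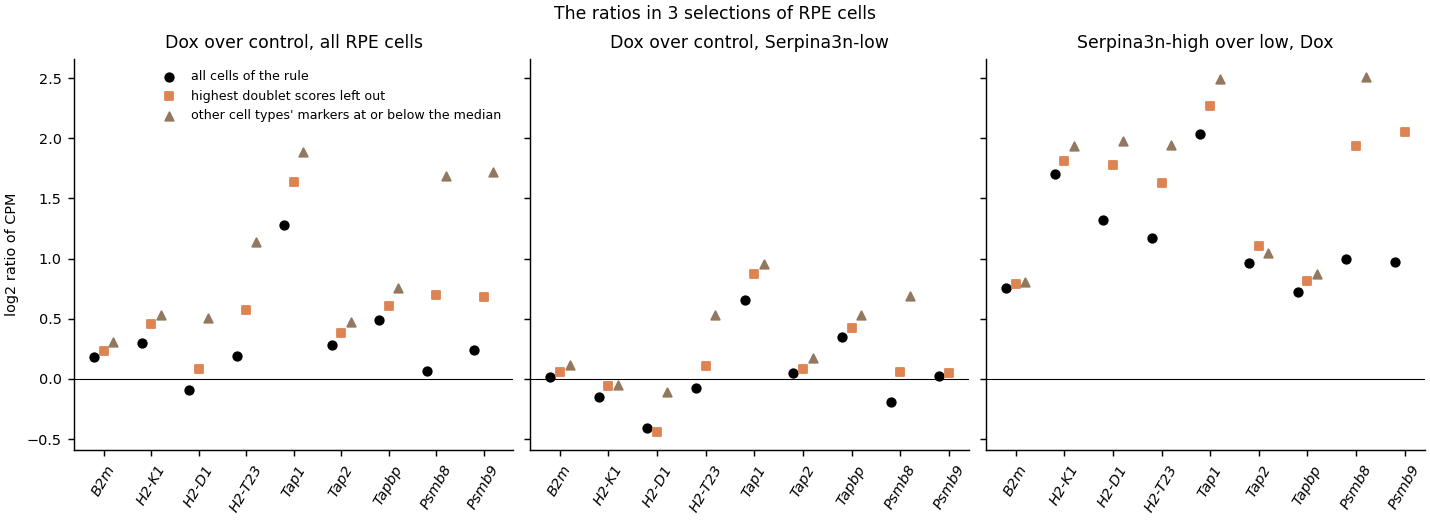
Log2 ratio of CPM for 9 class I genes in 3 selections of RPE cells: the cells of the rule (black circles), those left after removal of the highest doublet scores (orange squares) and those at or below the median of other cell types' markers (brown triangles). The left panel is Dox over control in all RPE cells, the middle panel the same in Serpina3n-low cells, and the right panel Serpina3n-high over Serpina3n-low cells in the Dox library; a gene without a triangle had under 50 UMIs. In the left panel Psmb8 moves from 0.07 to 1.69 and Psmb9 from 0.24 to 1.72 as cells with other types' markers are left out. Of 15 control and 208 Dox Serpina3n-high cells, 8 and 160 remained in that selection, and the part of this mix was not tested.

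By the number of genes past 1.5-fold, the largest contrast lay within the Dox library, between its Serpina3n-high and Serpina3n-low RPE cells. All 9 class I genes that could be compared were higher in the 208 Serpina3n-high cells by 1.5-fold or more, against 4.72% of 11662 genes higher and 20.3% lower, and a median log2 ratio of -0.18 over all of them. The median over the 9 genes was 1.0. Nlrc5, with 4 and 3 UMIs, was too low to compare.

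Among the chains of the class I molecule, H2-K1 was at 72.7 CPM (69.4 to 76.1) in Serpina3n-low and 237 CPM (225 to 250) in Serpina3n-high cells, a log2 ratio of 1.71 (1.60 to 1.81). H2-D1 was at 55.6 and 139 CPM (log2 ratio 1.32, 1.19 to 1.45). H2-T23 was at 9.79 and 22.1 CPM (1.17, 0.85 to 1.49). B2m was at 334 and 565 CPM (0.76, 0.70 to 0.82). Cells differed as their sums did. The median Serpina3n-high cell had 210 CPM of H2-K1, with quartiles of 108 and 313 CPM, whereas the median Serpina3n-low cell had 42.7 CPM, with quartiles of 0 and 109 CPM. H2-K1 in Serpina3n-high cells was above the 198 CPM of Dox fibroblast-like cells and below the 310 CPM of the Cxcl10-led fibroblast-like cells. H2-D1 did not reach the 272 CPM of smooth muscle-like cells, the lowest of the other types.

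Of the peptide supply genes, Tap1 was at 5.11 CPM (4.27 to 6.06) and 21.0 CPM (17.4 to 25.2), a log2 ratio of 2.04 (1.67 to 2.41). That level overlapped the interval of Dox fibroblast-like cells, 17.5 CPM (16.4 to 18.7). Tap2, the other chain of the pump, was at 17.8 and 34.7 CPM (0.96, 0.71 to 1.21), and Tapbp at 38.3 and 63.1 CPM (0.72, 0.54 to 0.90). Psmb8 was at 8.82 and 17.6 CPM (1.0, 0.64 to 1.35), and Psmb9 at 3.74 and 7.37 CPM (0.98, 0.41 to 1.52). Psmb8 stayed below the lowest of the other types in that library, 25.3 CPM (19.7 to 32.1) in melanocyte-like cells, though the intervals overlapped and RPE markers exceeded melanocyte markers in that group. Psmb9 likewise overlapped the 12.7 CPM (8.36 to 18.5) of smooth muscle-like cells.

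Serpina3n-high cells of the Dox library were deeper, with a median of 28244 UMIs against 16608 in Serpina3n-low cells. After each cell was thinned to 2000 UMIs, which left 205 and 1384 cells, H2-K1 was detected in 35.6% (29.1 to 42.6) of Serpina3n-high and 13.5% (11.8 to 15.4) of Serpina3n-low cells. The unthinned shares were 89.9% and 58.4%. B2m was detected in 63.4% (56.4 to 70.0) and 48.1% (45.5 to 50.8) of thinned cells, and H2-D1 in 21.0% (15.6 to 27.2) and 11.8% (10.1 to 13.6). Fibroblast, macrophage and NK or T markers were lower in the Serpina3n-high cells. The fibroblast markers summed to 432 CPM against 1248, and the macrophage markers to 97.2 CPM against 200. The NK or T markers summed to 0.180 CPM against 4.84, and 11 of 12 were at 0. Melanocyte markers went the other way, at 1817 CPM in Serpina3n-high against 1733 CPM in Serpina3n-low cells. The median doublet score was 0.135 in Serpina3n-high and 0.0958 in Serpina3n-low cells. With the cells restricted to low markers of the other types, 8 of 8 class I genes were higher by 1.5-fold, against 6.42% of all genes, with H2-K1 at 1.94, H2-D1 at 1.98, H2-T23 at 1.95, Psmb8 at 2.51 and Tap1 at 2.50. With the highest doublet scores left out, 9 of 9 were, against 5.47% of all genes. In both selections each log2 ratio that could be computed was larger than in all cells of the rule.

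In the control library the comparison rests on 15 Serpina3n-high cells, whose counts were small. H2-K1 was at 80.5 CPM in Serpina3n-low and 230 CPM (188 to 278) in Serpina3n-high cells, a log2 ratio of 1.51 (1.21 to 1.80) from 104 UMIs, and 93.3% of the 15 cells held at least 1. H2-D1 was at 73.9 and 137 CPM (0.89, 0.50 to 1.25), and B2m at 329 and 457 CPM (0.47, 0.27 to 0.67). Tapbp was at 30.0 and 50.8 CPM (0.76, 0.09 to 1.36). Tap1 had 2 UMIs in the 15 cells (4.42 CPM against 3.25, log2 ratio 0.44, -2.63 to 2.34). That interval includes both 0 and the 2.04 of the Dox library, so these counts do not settle whether Tap1 differed there. By 1.5-fold, 5 of 9 class I genes were higher and 1, Psmb8 with a single UMI, was lower (log2 ratio -2.19, -7.50 to 0.30). Of the 5, H2-T23 and Psmb9 had intervals that include 0. Of 11582 genes, 10.7% were higher and 30.3% lower.

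A single control cell bore on that count. Of the 907 fibroblast marker UMIs in the 15 cells, 567 (62.5%) were in 1 of them. Without it, 2 of 9 class I genes were higher by 1.5-fold, H2-K1 (1.55) and Tapbp (0.76), whereas H2-D1 (0.58) and H2-T23 (0.42) no longer reached that fold, nor did Psmb9 (0.33). Of all genes, 10.4% were higher without that cell, and Psmb8 was again lower. The median doublet score of the 15 cells was 0.305, against 0.134 in control Serpina3n-low cells. In low-marker cells, 8 of the 15 control cells remained, and 3 of 6 class I genes were higher and 1, Tap2, lower (-0.95), against 14.7% of all genes higher.

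**Figure D3:**
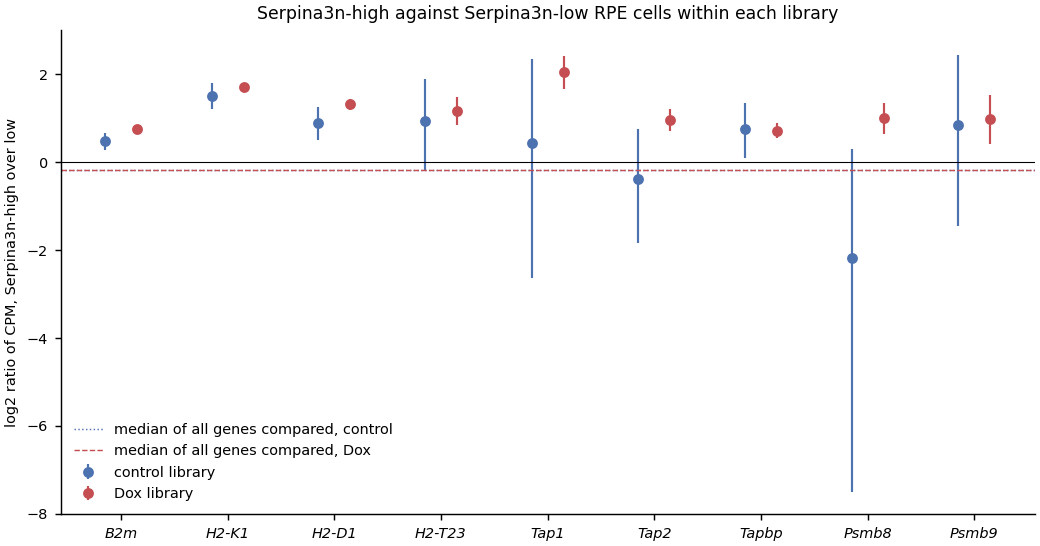
Log2 ratio of CPM, Serpina3n-high over Serpina3n-low RPE cells, for 9 class I genes within the control (blue) and Dox (red) libraries, with the exact conditional binomial interval of counting error; the dotted and dashed lines are the medians of all genes compared, -0.19 in control and -0.18 in Dox. In Dox the 9 genes lie between 0.72 and 2.04, and in control the intervals of H2-K1, H2-D1, B2m and Tapbp lie above 0.

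The Serpina3n-high cells were also set against each other between the libraries. H2-K1 was at 230 (control) and 237 CPM (Dox; log2 ratio 0.05, -0.24 to 0.35), and H2-D1 at 137 and 139 CPM (0.02, -0.36 to 0.42). Over the other settings the ratio of H2-D1 lay between -0.60 and 0.54. B2m was at 457 and 565 CPM (0.31, 0.10 to 0.52). Among the genes of peptide supply, Tapbp was at 50.8 and 63.1 CPM (0.31, -0.30 to 0.99), and Psmb9 had too few UMIs to be compared. Psmb8, Tap1 and Tap2 stood further apart. Psmb8 had 1 UMI in control and 98 in Dox (2.21 and 17.6 CPM, log2 ratio 2.99, 0.48 to 8.31). Tap1 had 2 and 117 UMIs (2.25, 0.37 to 5.31), and Tap2 6 and 193 UMIs (1.39, 0.24 to 2.85). These were the 3 of 8 class I genes higher by 1.5-fold, with 0 lower, against 16.5% higher and 10.9% lower of 7669 genes. The control side of each rests on 6 UMIs or fewer in 15 cells. With cells thinned to 2000 UMIs, Psmb8, Tap1 and Tap2 had too few UMIs to be compared. The 3 genes that could be compared then were B2m, H2-K1 and H2-D1. Of these, 0 were higher and 1, H2-D1 (-0.60), was lower, against 22.6% of all genes higher. The fibroblast markers summed to 2003 CPM in the control and 432 CPM in the Dox cells, and their part in these ratios was not tested.

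**Figure D4:**
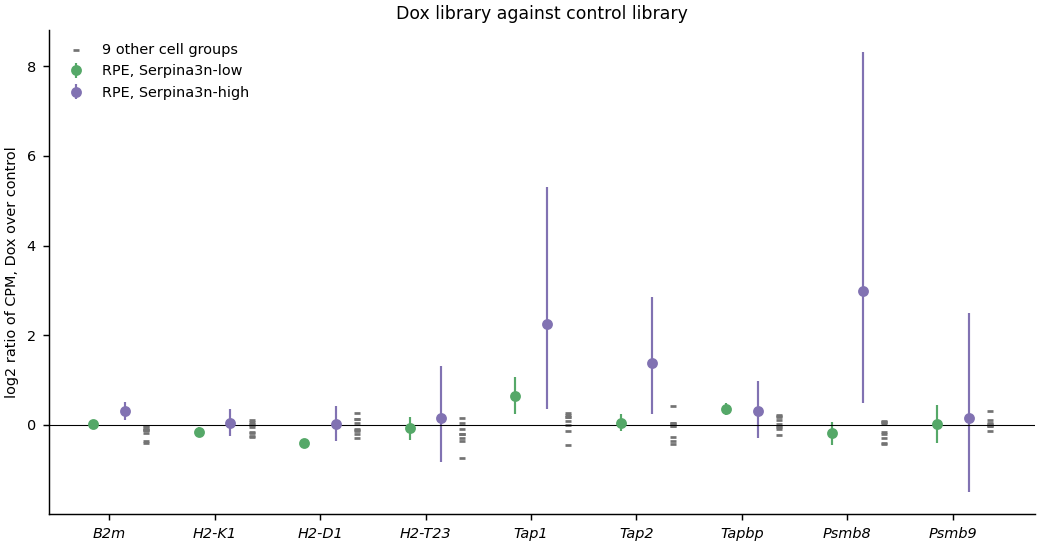
Log2 ratio of CPM, Dox over control, for 9 class I genes in Serpina3n-low RPE cells (green) and Serpina3n-high RPE cells (purple), with the exact conditional binomial interval of counting error, and in the 9 other cell groups (grey dashes, genes with 50 UMIs or more). Tap1 is at 0.65 in Serpina3n-low and 2.25 in Serpina3n-high cells, and the wide purple bars of Tap1, Tap2 and Psmb8 come from 6 or fewer control UMIs; Psmb9 in Serpina3n-high cells had under 50 UMIs and was not counted.

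Outside the RPE, the class I genes compared were within 1.5-fold between the libraries, except Nlrc5 in fibroblast-like and H2-T23 in smooth muscle-like cells. The share of all genes past that fold is not given for these groups, so whether the class I genes differ from it is not shown. The B2m ratio was below 0 in every group there, from -0.02 in macrophage-like cells to -0.40 (-0.54 to -0.26) in the unnamed cluster. H2-K1 and H2-D1 went both ways, higher in Dox in NK or T-like cells (0.11 and 0.13) and lower in melanocyte-like cells (-0.25 and -0.30). The median log2 ratio over the class I genes compared lay between -0.28 in the unnamed cluster led by Gfra3 and Snhg7os and 0.07 in endothelial-like cells. The medians over all genes in those 2 groups were 0.04 and -0.01. The class I median was 0.05 in macrophage-like, 0.04 in NK or T-like and -0.05 in fibroblast-like cells. In fibroblast-like cells, with 33525 and 25490 UMIs of B2m, B2m was at 561 (control) and 521 CPM (Dox), H2-K1 at 220 and 198 CPM, and Tap1 at 17.6 and 17.5 CPM. The ratios furthest from 0 were those of Nlrc5 in fibroblast-like cells, with 41 and 20 UMIs (-0.75, -1.60 to 0.06), and of H2-T23 in smooth muscle-like cells, with 169 and 46 UMIs (-0.73, -1.24 to -0.25).

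When RPE cells were ordered by their own Serpina3n level, H2-K1 and B2m were higher with each class of Serpina3n in Dox, also below 1000 CPM. In the Dox library H2-K1 went from 64.6 CPM in 1107 cells under 100 CPM of Serpina3n to 109 CPM (100 to 300), 138 CPM (300 to 1000), 197 CPM (1000 to 3000) and 251 CPM (3000 and over, 144 cells). B2m went from 321 through 400, 423 and 491 to 590 CPM over the same 5 classes. Tap1 was at 4.85 and 4.57 CPM in the lowest 2 classes and then at 10.1, 14.2 and 23.3 CPM. In the control library H2-K1 was at 73.0 CPM in 1399 cells, 133 CPM in 76 cells, 232 CPM in 36 cells, 233 CPM in 9 cells and 223 CPM in 6 cells. The fibroblast markers also varied over these classes, from 1008 CPM in the lowest to 3436 CPM in the next and 487 CPM in the highest class of the Dox library, and from 1734 through 3009, 3417 and 2898 to 453 CPM in control. H2-D1 was at 45.8 CPM in the lowest and 109 CPM in the next class in Dox, where the markers were also higher. In the upper 3 classes, where H2-K1 and Tap1 were highest, the markers were at 1239, 268 and 487 CPM. Depth differed over the classes too. The median cell of the 5 Dox classes had 19327, 8610, 5999, 22160.5 and 28992 UMIs, in order. In control it had 15978, 11749, 21456, 34870 and 30632.5 UMIs. The 212 Dox cells from 100 to 300 CPM held 393 UMIs of Serpina3n in all, so few UMIs place a shallow cell there. The part of the fibroblast markers or of depth in these differences was not tested.

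**Figure D5:**
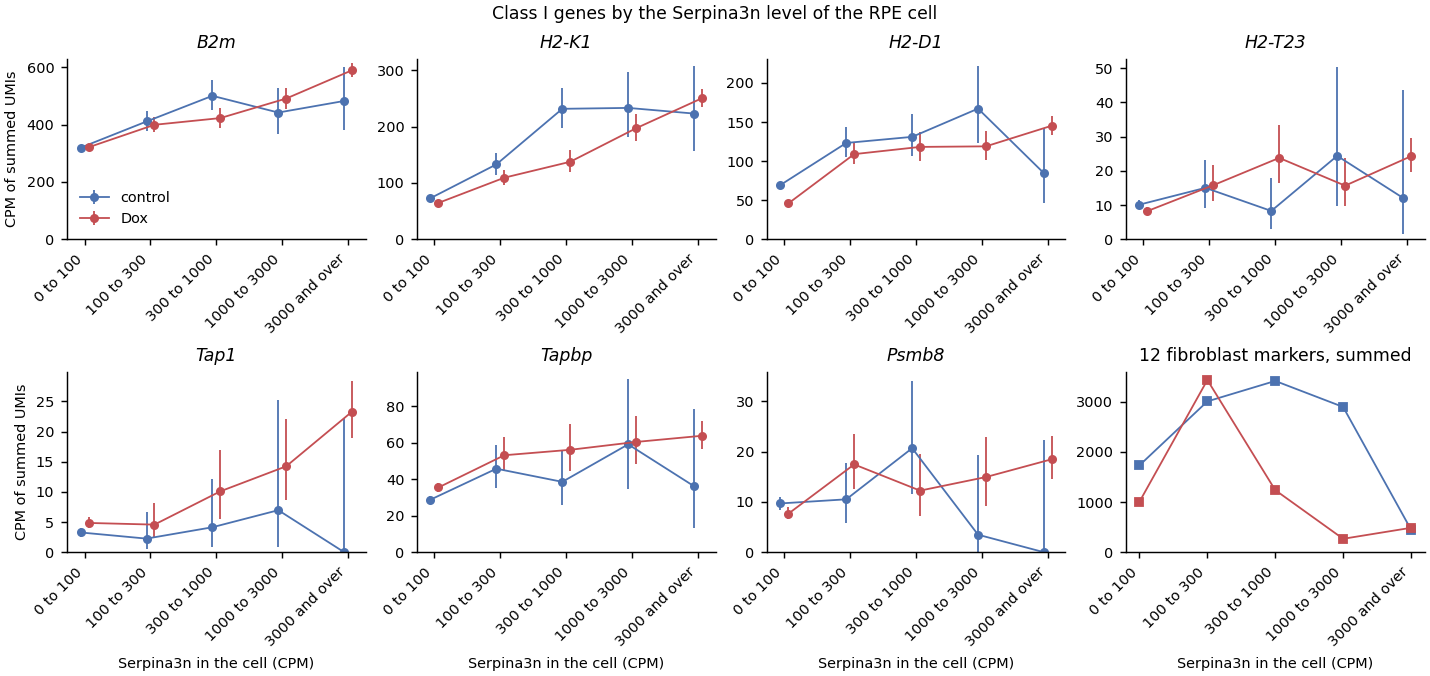
Level (CPM of summed UMIs) of 7 class I genes and of the 12 fibroblast markers, summed, in RPE cells grouped by their own Serpina3n level, control in blue and Dox in red; bars on the genes are exact Poisson intervals and the classes on the horizontal axis are in CPM. In Dox, H2-K1 goes from 64.6 to 251 CPM and Tap1 from 4.85 to 23.3 CPM, while the fibroblast markers peak at 3436 CPM in the second class.

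The rest of the presentation route was read from lists of related genes. Of 12 other class I heavy chain genes in the files, 4 could be compared between Serpina3n-high and Serpina3n-low Dox cells. Of these, 0 were higher by 1.5-fold and 1, H2-M5, was lower (9.44 and 4.13 CPM, log2 ratio -1.19, -1.88 to -0.57). Over all genes compared between these cells, 4.72% were higher and 20.3% lower, so 1 lower gene among 4 is near the share of all genes. The same shares apply to the next 2 lists. Of 3 class I-like genes compared, Hfe, the regulator of iron uptake that pairs with beta-2-microglobulin, was higher (16.6 and 32.5 CPM, 0.97, 0.71 to 1.23). Of 7 loading partners, Tapbpl, a tapasin-like peptide editor, was higher (5.11 and 9.16 CPM, 0.84, 0.35 to 1.32). Of 9 constitutive proteasome genes, which include the activator Psme3, 0 passed 1.5-fold in either direction in any of the 5 comparisons among RPE cells. Over all genes, between 1.05% and 16.5% were higher and between 3.87% and 30.3% lower in those comparisons. The median log2 ratio of the 9 was -0.01 between Serpina3n-high and Serpina3n-low Dox cells. Of the 3 other inducible proteasome genes, Psme1, a subunit of the PA28 activator, was at 99.4 (control) and 151 CPM (Dox) in Serpina3n-high cells (0.60, 0.17 to 1.07). In that comparison 16.5% of all genes were higher.

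Transcription factors of class I genes differed in both directions. Between Serpina3n-low and Serpina3n-high Dox cells, Irf9, a part of the complex that binds interferon-stimulated response elements, was higher, at 27.2 and 44.6 CPM (0.71, 0.50 to 0.93). Irf1, an activator of class I and immunoproteasome genes, was lower, at 90.5 and 44.0 CPM (-1.04, -1.24 to -0.85), and was lower in control as well (103 and 61.8 CPM, -0.74, -1.33 to -0.20). Irf1 was at 1125 CPM in Dox fibroblast-like cells, whose markers summed to 1248 CPM in Serpina3n-low and 432 CPM in Serpina3n-high Dox cells. In control those markers summed to 1847 CPM in Serpina3n-low and 2003 CPM in Serpina3n-high cells. Of their UMIs in the 15 control Serpina3n-high cells, 62.5% were in 1 cell. The part of fibroblast RNA in the differences of Irf1 was not tested. Between the libraries, Irf9 was at 17 (control) and 30.3 CPM (Dox) in RPE cells (0.83, 0.67 to 1.0) and Stat2, of the same complex, at 16.3 and 27.0 CPM (0.73, 0.56 to 0.90). Both were also higher by 1.5-fold in Serpina3n-low cells (0.67 and 0.62). Erap1, the aminopeptidase that trims class I peptides, was at 10.4 and 15.7 CPM (0.59, 0.38 to 0.81) in all RPE cells.

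Interferon genes outside the class I route went with the class I genes in some comparisons and not in others. Of 21 compared, 16 were higher and 1 lower in Serpina3n-high than in Serpina3n-low Dox cells, against 4.72% and 20.3% of all genes, with a median log2 ratio of 1.02. Irf7 was at 14.4 and 68.3 CPM (2.25), Ifit3 at 117 and 384 CPM (1.71) and Bst2 at 407 and 779 CPM (0.94). Cxcl10, a chemokine, was the lower one, at 31.5 and 10.1 CPM (-1.65). Of 8 interferon signalling genes compared between the same cells, 2 were higher and 1 lower, against the same shares of all genes. Their median log2 ratio was -0.25, and that over all genes -0.18. The 2 higher in Serpina3n-high Dox cells were the receptor chains Ifnar2 (61.7 and 111 CPM, 0.84, 0.71 to 0.98) and Ifngr2 (15.4 and 26.4 CPM, 0.78, 0.50 to 1.06). The feedback inhibitor Socs1 was lower (18.6 and 8.98 CPM, -1.05, -1.50 to -0.63). Cxcl10 and Socs1 were at 121 and 244 CPM in Dox fibroblast-like cells and at 4997 and 417 CPM in the Cxcl10-led ones. They were lower where the fibroblast markers were lower, 432 against 1248 CPM, and the part of such RNA was not tested. In control, 4 of 19 interferon genes were higher and 4 lower in Serpina3n-high cells, against 10.7% and 30.3% of all genes. Their median log2 ratio there was -0.12, whereas that of the class I genes was 0.76. Between the libraries, 11 of 21 were higher in Dox and 1, Cxcl10, was lower in all RPE cells, with a median of 0.59, against 1.66% and 4.92% of all genes. The fibroblast markers of all RPE cells were also lower in Dox, at 1849 (control) and 1103 CPM (Dox). In Serpina3n-low cells, 9 of 21 interferon genes were higher in Dox and 1 lower (median 0.42), against 1.05% and 3.87% of all genes. The class I median there was 0.02. In Serpina3n-high cells, 16 of 17 were higher in Dox (median 1.98), against 16.5% of all genes, and the class I median was 0.31. The control side of that last comparison holds 15 cells. Ifng itself was at 78.7 CPM in control NK or T-like cells and at 0.114 CPM in control RPE cells. The 6 receptor genes with which T and NK cells read class I molecules had too few UMIs in RPE cells to compare.

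Across 20 groups of cell type and library, Psmb9 followed the mean of the 10 class I genes most closely (Pearson r = 0.99 on log2 of CPM plus 10, each gene being part of that mean), and Nlrc5 least (0.78). B2m was at 0.85. The genes outside the 10 with the most similar pattern, among 6386 compared, were Tmsb4x and Ppp1r18 (both 0.96), Sp100 and Gna13 (both 0.95) and Adgre5 (0.94). Groups needed at least 50 cells in both libraries, so Serpina3n-high RPE cells are not among the 20. The 20 groups come from 2 libraries, so these values are a description of likeness only.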

How the data were processed

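Per the file headers, the authors counted UMIs with Cell Ranger 4.0.0; their reads were aligned to mm10, and the deposited values are raw counts of UMIs per gene and cell. The filters of the study were applied, which keep a barcode with more than 500 UMIs, between 200 and 6000 genes, a log10 gene to UMI ratio above 0.8 and a mitochondrial share below 0.2. Clusters came from Seurat 5.3.0 (sctransform 0.4.2, R 4.3.3) after integration, at a resolution of 0.1, without the class I genes among the 2974 features, and were named from marker lists. No doublets were removed. Doublet scores came from Scrublet in scanpy 1.11.5 and served an alternative.

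UMIs were summed per group and given as CPM with 95% exact intervals (Python 3.11.15, scipy 1.17.1), which cover counting error only. With 1 library per condition no test was made. A gene was compared with 50 UMIs or more over both groups, and called higher or lower at 1.5-fold. Scripts were tested on simulated data. The members and gene lists were chosen with earlier results of these data known. All 10 members are named, and other genes were named from the lists when past 1.5-fold in an RPE comparison or by likeness. Positions are from GENCODE vM21 and promoters from RefSeq (GRCm38.p6). A gene of the transcription factor list is not reported here, nor are counts over that list.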

Additional observations from a re-analysis of the deposited data

Results flagged for a closer look

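Psmb8 stood out because it differed in opposite directions within the libraries. The log2 ratio of Serpina3n-high over Serpina3n-low RPE cells was -2.19 (-7.50 to 0.30) in control, from 1 UMI in 15 cells, and 1.0 (0.64 to 1.35) in Dox, from 98 UMIs in 208 cells. The difference between the libraries was not tested, and the control interval includes 0.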

How the results depend on the processing

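No paired analysis was possible because each condition has 1 library. For the same reason no replicate could be left out. Of 78 counts of class I genes under other settings, 60 stayed within 1.5 times the value reported. Of 571 log2 ratios, 491 stayed within the counting interval of the value reported, 78 moved outside it and 2 that were past 1.5-fold changed sign. Ratios below 1.5-fold could change sign too, as did that of H2-D1 in all RPE cells (-0.45 to 0.51) and that of H2-T23 in Serpina3n-low cells (-0.28 to 0.53). The 2 past 1.5-fold were in the control library, Psmb8 at 0.0384 with Serpina3n divided at 500 CPM and Tapbp at -0.11 with it divided at 2000 CPM, and the cause was not tested.

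Percentages in brackets here are the shares of all genes compared that were higher under the same setting. In Dox against control, the 1 gene higher in all RPE cells (1.66%) became 4 without the highest doublet scores (2.0%). The count was 5 in cells low in other types' markers (2.61%) and 0 of 7 when thinned to 2000 UMIs (2.91%), where Tap1 had too few UMIs to be compared. The 1 in Serpina3n-low cells (1.05%) became 2 of 8 in low-marker cells (1.59%). The count was 0 with the mean of the cells' own CPM (2.65%), with thinning (3.47%) or at 2-fold (0.119%). Tap1 was again not compared when thinned. Where it was compared, its lowest log2 ratio was 0.96 in all RPE cells and 0.55 in Serpina3n-low cells. The 3 of 8 in Serpina3n-high cells (16.5%) became 5 of 9 with no limit on genes or complexity (13.4%). The count was 5 of 8 with the division at 2000 CPM (20.2%), 5 of 8 in low-marker cells (20.7%) and 0 of 3 when thinned (22.6%). Those 3 were B2m, H2-K1 and H2-D1, so Tap1, Tap2 and Psmb8 were not compared when thinned. Within control, the 5 (10.7%) became 1 with the division at 2000 CPM (16.8%) and 2 of 5 when thinned (23.1%). The count was 3 of 6 in low-marker cells (14.7%) and 1 at 2-fold (4.22%). Without the 1 cell rich in fibroblast markers, a setting chosen after seeing the data, it was 2 (10.4%). Within Dox, the 9 (4.72%) became 5 of 5 when thinned (7.20%), where fewer genes could be compared, and 4 at 2-fold (2.16%). With the mean of the cells' own CPM it was 8 of 9 (4.97%). Over the other settings, the log2 ratio of Tap1 between Serpina3n-high and Serpina3n-low Dox cells lay between 1.87 and 2.50 and that of H2-K1 between 1.40 and 1.94. Other genes ranged more widely, with H2-D1 between 0.65 and 1.98 and Psmb8 between 0.54 and 2.51. Counting depth limits Nlrc5 throughout and Tap1, Psmb8 and Psmb9 in the 15 control Serpina3n-high cells.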
